A study of Mus musculus with 16 samples.

Results

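The Cyp3a and Cyp2b genes encode cytochrome P450 enzymes of the liver endoplasmic reticulum. The 10 genes described here were chosen by name and matched by Ensembl identifier to their rows in the series gene count table, which held 55357 genes. They were Cyp3a11, Cyp3a13, Cyp3a16, Cyp3a25, Cyp3a41a, Cyp3a44 and Cyp3a59 on mouse chromosome 5 and Cyp2b9, Cyp2b10 and Cyp2b13 on chromosome 7. GENCODE M21 lists 18 genes and pseudogenes with a Cyp3a or Cyp2b symbol, and all 18 had a row in the table. All 10 members passed the filter on low counts, which kept 14421 genes.

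Mouse liver RNA was sequenced after ribosomal RNA depletion with a kit that keeps the strand, as 16 libraries in 4 groups of 4. AUG livers carried the telomerase RNA gene mTERC with the genotype label CUG/AUG. The del7 livers carried mTERC 29_35del, which lacks 7 nucleotides at positions 29 to 35. AUG_WT and del7_WT were the wild-type groups that the titles assign to each mutant, and all 4 groups were untreated mice in individually ventilated cages on a 12:12 light cycle with food at all times. The labels give no strain, age or sex, and do not explain the notation CUG/AUG. A mutant together with its own wild type is called a line below. Because nothing in the labels says that the replicates came from separate animals, p-values reflect no more than the spread among these libraries, part of which may be technical. The telomerase RNA itself was not analysed here.

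Cytochrome P450 enzymes of these families add oxygen to drugs, steroids and bile acids with electrons from the reductase encoded by Por and with haem made by the pathway that Alas1 opens. Cyp3a11 is the main Cyp3a enzyme of mouse liver and is induced through the nuclear receptor PXR (gene Nr1i2), while Cyp2b10 is the classical target of its relative CAR (gene Nr1i3). Cyp3a16, Cyp3a41a, Cyp3a44, Cyp2b9 and Cyp2b13 are higher in female than in male mouse liver, where the pattern of growth hormone secretion, read through STAT5, sets their level, and Cyp3a13, Cyp3a25 and Cyp3a59 are treated here as the constitutive members.

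Several members are close copies of each other, and Cyp3a41a is a near-identical copy of a gene outside the 10, which bears on how reads can be assigned. In the GENCODE M21 transcripts the coding sequence of Cyp3a41a was 99.9% identical to that of Cyp3a41b, a gene outside the 10. They differed by 2 substitutions, G120A and G336T, with Cyp3a41a first and positions counted from the first coding base, and the longest stretch without one was 1179 bases. The 41 bases around each difference are shown because reads that cover neither of these positions cannot separate the copies within the coding sequence, and capitals mark the base that differs.
Cyp3a41a, coding bases 100 to 140: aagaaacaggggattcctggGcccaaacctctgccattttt
Cyp3a41b, coding bases 100 to 140: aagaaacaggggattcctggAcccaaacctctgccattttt
Cyp3a41a, coding bases 316 to 356: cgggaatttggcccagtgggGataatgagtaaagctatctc
Cyp3a41b, coding bases 316 to 356: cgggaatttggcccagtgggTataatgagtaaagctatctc
Coding identity was 97.5% between Cyp3a25 and Cyp3a59, 95.8% between Cyp3a41a and Cyp3a44, 95.2% between Cyp3a11 and Cyp3a41a, 92.8% between Cyp3a16 and Cyp3a41a and 92.7% between Cyp2b9 and Cyp2b13. Cyp2b10 and Cyp2b13 shared 88.9%. The most separate member was Cyp3a13, with 77.9% identity to Cyp3a25.

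A window of 50 bases slid along the Cyp3a41a transcript was also found in another gene for 98.6% of its 2011 positions, and a window of 100 bases for 90.8%. The same share at 50 bases was 27.98% for Cyp3a59, 27.3% for Cyp2b13, 26.8% for Cyp3a25, 26.5% for Cyp3a44, 14.8% for Cyp3a11, 11.2% for Cyp2b9, 10.7% for Cyp3a16 and 9.69% for Cyp2b10. No window of Cyp3a13 was found in another gene. STAR counts reads per gene only where they align to 1 place, so values of the members that share windows are uncertain. At 100 bases the largest share after that of Cyp3a41a was 9.29%, for Cyp2b13, and the read length is not known here. The share of all reads that aligned to several places ranged from 9.23% to 15% between libraries. Antisense reads reached at most 1.498% of the sense count, for Cyp3a41a.

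**Figure D1:**
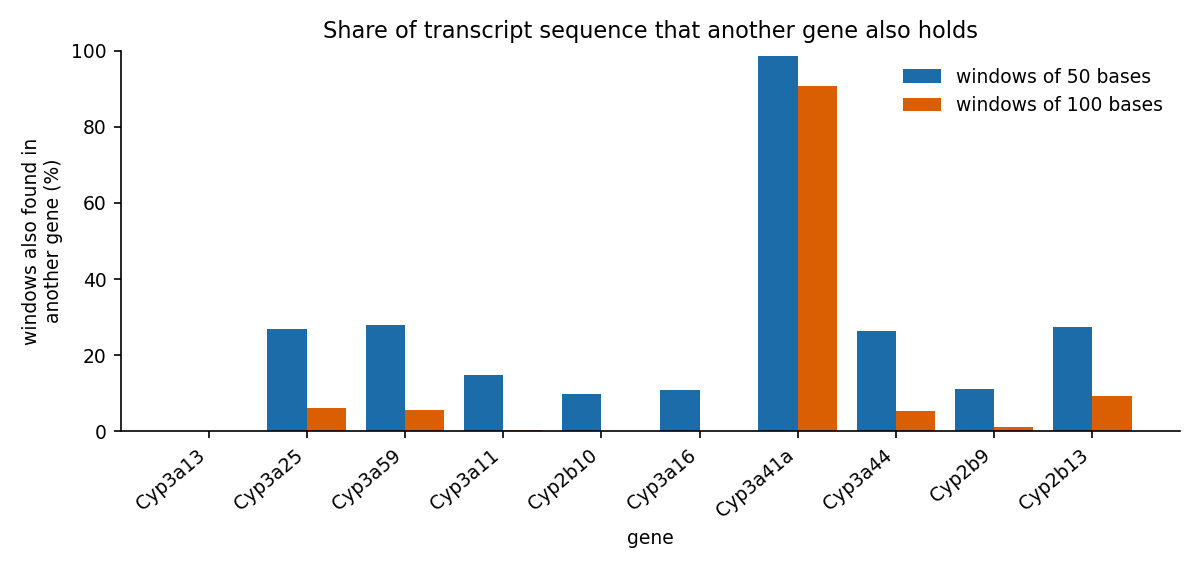
Share of 50-base and 100-base windows along each gene's transcript (horizontal axis, 10 genes) that also occur in another gene, in percent (vertical axis from 0). Cyp3a41a stands at 98.6% and 90.8%, the other members lie between 0 and 27.98% at 50 bases.

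The 120 bases before the first listed RefSeq transcription start are shown for the Cyp2b genes, because Cyp2b9 and Cyp2b13 do not differ there while their levels did, and for 4 Cyp3a genes. Positions are on GRCm38.p6, the build of the RefSeq table, and are not those of the build the reads were aligned to. Cyp2b9 (chr7:26173289-26173408), Cyp2b13 (chr7:26061375-26061494) and Cyp2b10 (chr7:25897538-25897657) lie on the forward strand. Capitals mark bases that differ from, or are not in, the aligned Cyp2b9 window.
Cyp2b9: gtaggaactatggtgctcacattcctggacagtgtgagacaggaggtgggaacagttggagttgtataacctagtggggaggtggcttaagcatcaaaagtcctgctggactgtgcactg
Cyp2b13: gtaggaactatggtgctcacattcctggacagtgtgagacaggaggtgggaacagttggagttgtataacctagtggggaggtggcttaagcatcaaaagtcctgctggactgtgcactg
Cyp2b10: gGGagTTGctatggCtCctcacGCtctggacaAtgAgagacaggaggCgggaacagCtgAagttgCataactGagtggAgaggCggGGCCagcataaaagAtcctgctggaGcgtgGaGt
The Cyp2b9 and Cyp2b13 windows were 100% identical, and Cyp2b10 shared 75.2% of aligned positions with them. Cyp3a41a (chr5:145720137-145720256), Cyp3a44 (chr5:145805875-145805994), Cyp3a16 (chr5:145469724-145469843) and Cyp3a11 (chr5:145879855-145879974) lie on the reverse strand. Here capitals mark bases that differ from, or are not in, the aligned Cyp3a41a window. The last capitals of Cyp3a16 and Cyp3a11 lie past the end of that window.
Cyp3a41a: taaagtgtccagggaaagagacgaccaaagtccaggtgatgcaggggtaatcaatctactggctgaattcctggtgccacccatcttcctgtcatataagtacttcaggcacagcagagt
Cyp3a44: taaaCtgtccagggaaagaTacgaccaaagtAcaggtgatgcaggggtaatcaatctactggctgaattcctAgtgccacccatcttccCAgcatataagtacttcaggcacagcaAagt
Cyp3a16: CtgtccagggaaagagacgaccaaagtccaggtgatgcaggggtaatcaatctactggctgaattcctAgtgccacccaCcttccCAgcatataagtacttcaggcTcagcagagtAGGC
Cyp3a11: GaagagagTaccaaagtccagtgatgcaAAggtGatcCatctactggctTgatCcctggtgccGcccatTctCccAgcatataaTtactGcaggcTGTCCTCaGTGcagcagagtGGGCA
Identity to Cyp3a41a was 93.4% for Cyp3a44, 88.0% for Cyp3a16 and 66.4% for Cyp3a11, with bases past the end of a window counted as differences. In the 250 bases before the start, the letters TTCNNNGAA of a STAT5-type palindrome, searched on both strands, were absent from all 10 members, against 7.18% of 27025 promoters that held them. The nuclear receptor half-site AGTTCA occurred before Cyp3a11 and Cyp3a41a (11.9% of promoters) and AGGTCA before Cyp3a11, Cyp3a25, Cyp3a44, Cyp3a59, Cyp2b9 and Cyp2b13 (13.8%), also on both strands. The AGGTCA matches of Cyp2b9 and Cyp2b13 both began at -138, and those of Cyp3a25 (-176 and -155) and Cyp3a59 (-177 and -156) nearly coincided. Copies thus repeat the same match, and the genes cannot be counted as separate cases against the share of all promoters.

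Library totals ranged from 7714058 to 14629022 gene counts. Xist, the RNA of the inactive X chromosome, was at 1521 to 1992 CPM (counts scaled to a library size of 1e6 after TMM scaling) in all 16 libraries, and of 4 Y-linked genes none had more than 1 count in a library. The first principal component set AUG_WT replicate 1 against the rest (-126, with the other 15 between -10.7 and 21.6). The 5 hepatocyte markers summed to 37872 CPM in that library, against 85635 to 143270 in the others, and the 6 markers of B and plasma cells to 729 CPM, against 33.5 to 331. All 5 T and natural killer cell markers were also highest there. That library also had the highest share of reads assigned to no gene, 35.0%, with del7_WT replicate 1 next at 29.4%. Fewer hepatocytes, more of other cells and less RNA per hepatocyte cannot be told apart in bulk tissue, and the part of library quality was not tested. AUG_WT replicate 2 had the highest hepatocyte sum, most of it albumin (Alb) at 130934 CPM, and was the highest library for 1 of the 5 markers. Both libraries belong to the same wild-type group, so results for AUG are also given with AUG_WT replicates 3 and 4 alone, a choice made after seeing the data, where that turns the direction of a member or of a gene list described below.

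Between genes, levels are compared as CPM per kilobase of 1 transcript per gene. For Cyp3a11 that transcript has 2344 bases, while all its annotated exons cover 5093. The longer length would give it a lower level and a smaller lead over Cyp2b9. Cyp3a11 was the most abundant member by median, at 760.9 CPM per kilobase over the 16 libraries, and it exceeded the gene ranked next, Cyp2b9, in 16 of 16 libraries. It did not lead in AUG_WT replicate 2, where it stood at 15.7, above only Cyp2b9 (2.17) and Cyp2b13 (0.607). Cyp3a44 was the most abundant member in that library, at 377, followed by Cyp3a16 at 292. Cyp2b9 (median 300.1) and Cyp3a25 (286) did not keep an order, with Cyp2b9 higher in 5 of 16 libraries. Cyp3a25 exceeded Cyp3a44 (99.6) in 14 of 16. Cyp3a44 and Cyp2b13 (97.5) exchanged places in 8 of 16, and Cyp2b13 exceeded Cyp3a16 (73.5) in 11. The lowest values were those of Cyp2b10 (47.9), Cyp3a13 (46.5), Cyp3a41a (44.1) and Cyp3a59 (39.0), and none of these 4 exceeded its next neighbour in more than 11 of 16 libraries. Only reads aligned to 1 place are counted, and 98.6% of the 50-base windows of Cyp3a41a occur in another gene. Its place in this order, and that of other members with shared windows, may therefore be too low. Together the 10 genes took 0.193% to 0.522% of all gene counts, with AUG_WT replicate 1 at the low end and AUG_WT replicate 4 at the high end.

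The PXR target Cyp3a11 stood in AUG_WT at 864, 36.9, 1745 and 2507 CPM in replicates 1 to 4 and in AUG at 2427, 1229, 2310.0 and 1516 CPM. In the del7 line it stood at 1822, 864, 2805 and 1145 CPM in del7_WT and at 2913, 1996, 2741 and 976 CPM in del7. AUG_WT replicate 2 was 49.4-fold below the median of the other 15 libraries and 23.4-fold below the next lowest. The 4 groups overlapped.

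Cyp2b10, the CAR target, was measured at 9.33, 67.2, 126 and 99.7 CPM in AUG_WT and at 151, 53.0, 61.1 and 72.8 CPM in AUG. Its levels in del7_WT were 72.0, 87.3, 114 and 140.1 CPM, and in del7 96.3, 134, 98.3 and 46.2 CPM. The lowest library was AUG_WT replicate 1, 10.3-fold below the median of the other 15, and the groups overlapped.

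Among the female growth-hormone-controlled genes, Cyp2b9 was at 102, 4.08, 690.3 and 729.9 CPM in AUG_WT and at 559.8, 464, 566 and 705 CPM in AUG. It was at 493, 647, 572 and 593 CPM in del7_WT and at 460.3, 408, 529 and 637 CPM in del7. AUG_WT replicate 2 was 139-fold below the median of the other 15 libraries, with 43 reads, and AUG_WT replicate 1 was 5.53-fold below. The other 14 libraries lay between 408 and 729.9 CPM, the narrowest range of any of the 5 female genes as a ratio of highest to lowest.

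Cyp2b13 was at 34.3, 1.14, 191 and 392 CPM in AUG_WT and at 255, 260.1, 151 and 436 CPM in AUG. In del7_WT it was at 249.9, 147, 175 and 29.9 CPM, and in del7 at 207, 68.2, 286 and 159 CPM. AUG_WT replicate 2, with 12 reads, was 168-fold below the median of the other 15. The ratio of Cyp2b9 to Cyp2b13 reads, whose 120 bases before the start are the same sequence as printed above, ran from 1.62 in AUG replicate 4 to 19.9 in del7_WT replicate 4, with a median of 3.13.

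Cyp3a16 had the widest range among the female Cyp3a genes as a ratio of highest to lowest, at 29.3, 505, 159 and 214 CPM in AUG_WT and at 40.99, 6.21, 102 and 131 CPM in AUG. It was at 27.7, 321, 178 and 502 CPM in del7_WT and at 30.6, 270.2, 5.67 and 123 CPM in del7. In each group the highest library was at least 17.2-fold above the lowest.

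For Cyp3a44 the levels were 30.1, 739, 212 and 156 CPM in AUG_WT and 63.4, 203, 149.7 and 126 CPM in AUG. They were 391, 618, 198 and 782 CPM in del7_WT and 33.1, 193, 119 and 280.2 CPM in del7. All 4 del7 libraries lay below the del7_WT median of 504 CPM, but del7_WT replicate 3 fell inside the del7 range.

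Cyp3a41a was at 39.6, 189, 122 and 87.2 CPM in AUG_WT and at 82.6, 94.7, 46.0 and 67.8 CPM in AUG. In the other line it was at 116, 158, 100.2 and 189 CPM in del7_WT and at 73.4, 137, 34.2 and 71.8 CPM in del7. Its copy Cyp3a41b had a median of 22.4 CPM over the 16 libraries, and the ratio of reads assigned to Cyp3a41a and Cyp3a41b ran from 1.89 in AUG_WT replicate 2 to 15.8 in AUG replicate 2.

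The constitutive Cyp3a13, which is also an intestinal gene, was at 133, 176, 212 and 176 CPM in AUG_WT and at 160.5, 187, 227 and 192 CPM in AUG. In del7_WT it was at 41.7, 114, 31.7 and 117 CPM, and in del7 at 45.1, 142, 125 and 95.7 CPM. AUG_WT replicates 1 and 2 ranked 8 and 12 of 16 from the lowest for this gene, and 7 of 8 libraries of the AUG line were above the highest library of the del7 line.

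Cyp3a25 was at 172, 519, 544 and 934 CPM in AUG_WT, at 434, 524, 618 and 895 CPM in AUG, at 555, 702, 590.0 and 645 CPM in del7_WT and at 445, 751, 645 and 492 CPM in del7. Its copy Cyp3a59 was at 17.3, 109.5, 71.4 and 145 CPM in AUG_WT, at 46.5, 34.0, 67.4 and 122 CPM in AUG, at 82.5, 121, 101 and 122 CPM in del7_WT and at 48.8, 106, 72.8 and 58.1 CPM in del7. Both were lowest in AUG_WT replicate 1, and all groups overlapped.

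**Figure D2:**
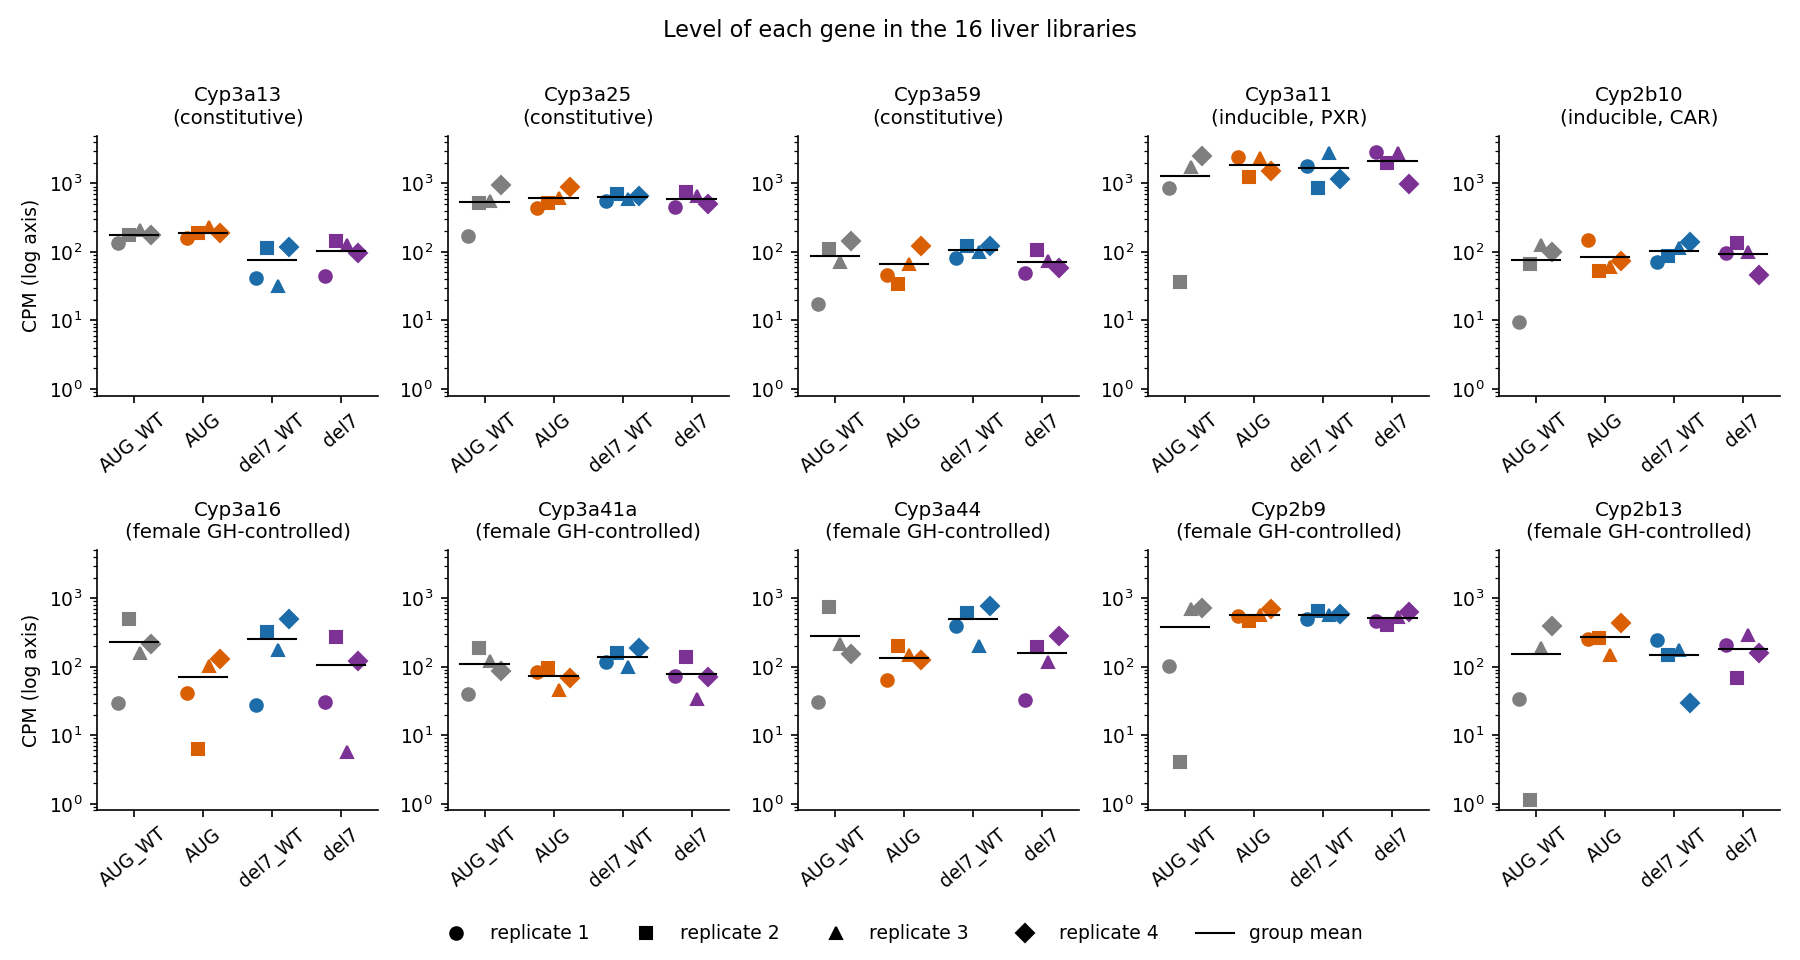
Level of each gene in CPM (vertical log axis) in the 4 libraries of each group (horizontal axis); marker shapes are replicates and black lines are group means. AUG_WT replicate 2 (grey squares) lies at 36.9 CPM for Cyp3a11, 4.08 CPM for Cyp2b9 and 1.14 CPM for Cyp2b13, and near the top for Cyp3a16 and Cyp3a44.

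AUG_WT replicate 2 thus showed opposite extremes within the 10 genes. Cyp3a11, Cyp2b9 and Cyp2b13 were lowest there of all 16 libraries, while Cyp3a16 and Cyp3a41a were highest and Cyp3a44 was second highest. The ratio of Cyp3a44 to Cyp3a11 reads was 20.04 in that library and at most 0.716 in the other 15. Over all tested genes the same library was lowest for 7.12% and highest for 10.4%. Of the gene lists described below, it was lowest for 4 and highest for 1 of 20 other CAR and PXR targets, lowest for 2 and highest for 4 of 15 other female-biased genes, and highest for 3 and lowest for none of 9 growth hormone receptor and STAT5 genes. The next 3 genes were chosen for their values in this library. Ghr, the growth hormone receptor, was at 3036 CPM against 161 to 669.9 in the other 15. The CAR and PXR targets Abcc3, an export pump, and Cyp2c50 were at 41.3 CPM (other 15 from 257) and 23.7 CPM (other 15 from 215). The receptor genes Nr1i2 and Nr1i3 were at 46.3 and 198 CPM, each second lowest, and only AUG_WT replicate 1 was lower.

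AUG_WT replicate 1 was lowest of 16 for 4 members, Cyp3a25, Cyp3a44, Cyp3a59 and Cyp2b10, and highest for none. Over all tested genes it was lowest for 26.0% and highest for 28.9%. The low hepatocyte sum of that library moved with these values, and its part in them was not tested.

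**Figure D3:**
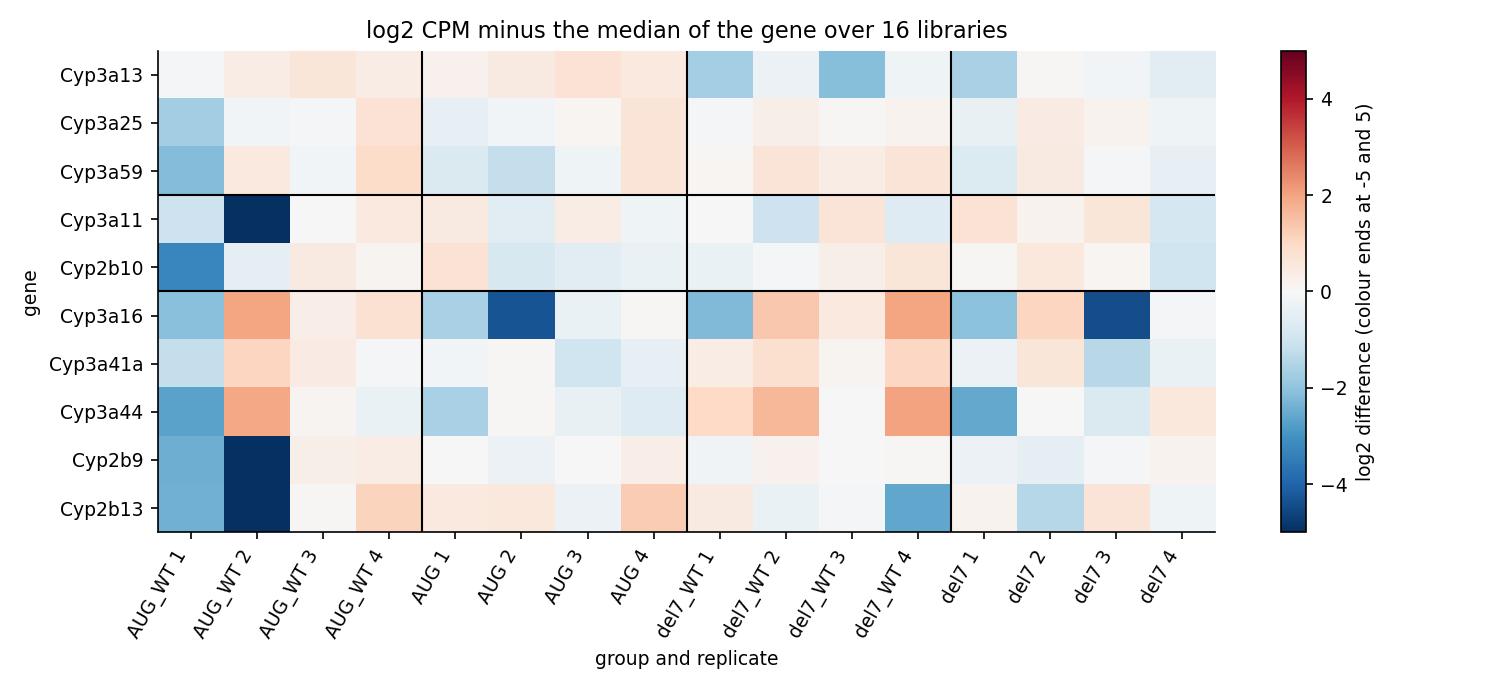
Difference of each gene's log2 CPM (rows) from its median over the 16 libraries (columns, by group and replicate); blue is lower, red is higher, and the colour scale ends at -5 and 5. In AUG_WT replicate 2 Cyp3a11, Cyp2b9 and Cyp2b13 are deep blue while Cyp3a16, Cyp3a41a and Cyp3a44 are red.

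Replicates 1 and 3 had the 2 highest Cyp3a11 levels of their group in AUG, del7_WT and del7, though not in AUG_WT. In del7_WT and del7 the same replicates had the 2 lowest levels of Cyp3a16 and of Cyp3a44, and the highest of Alas1, the first enzyme of haem synthesis. Alas1 stood at 739.9, 279, 521 and 91.8 CPM in del7_WT and at 368, 164, 772 and 96.8 CPM in del7. The labels do not say what the numbers stand for, and this arrangement was seen in the values and was not tested.

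Spread between replicates set the precision of every comparison. The standard deviation of log2 CPM within groups was 2.02 for Cyp2b13, 2.01 for Cyp3a16, 1.75 for Cyp2b9, 1.499 for Cyp3a11 and 1.29 for Cyp3a44, against a median of 0.312 over all tested genes. Each of these 5 exceeded at least 98.5% of tested genes. The smallest was 0.590 for Cyp3a25, above 83.4% of genes. Without AUG_WT replicates 1 and 2 the value for Cyp2b9 was 0.223, near the median of 0.239 for all genes, and that for Cyp3a11 was 0.638. Against the 1992 genes at least as abundant as the least abundant member, whose median was 0.155, Cyp2b9 still exceeded 75.1%. Cyp3a16 stayed at 1.99 and Cyp2b13 was at 0.978.

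**Figure D4:**
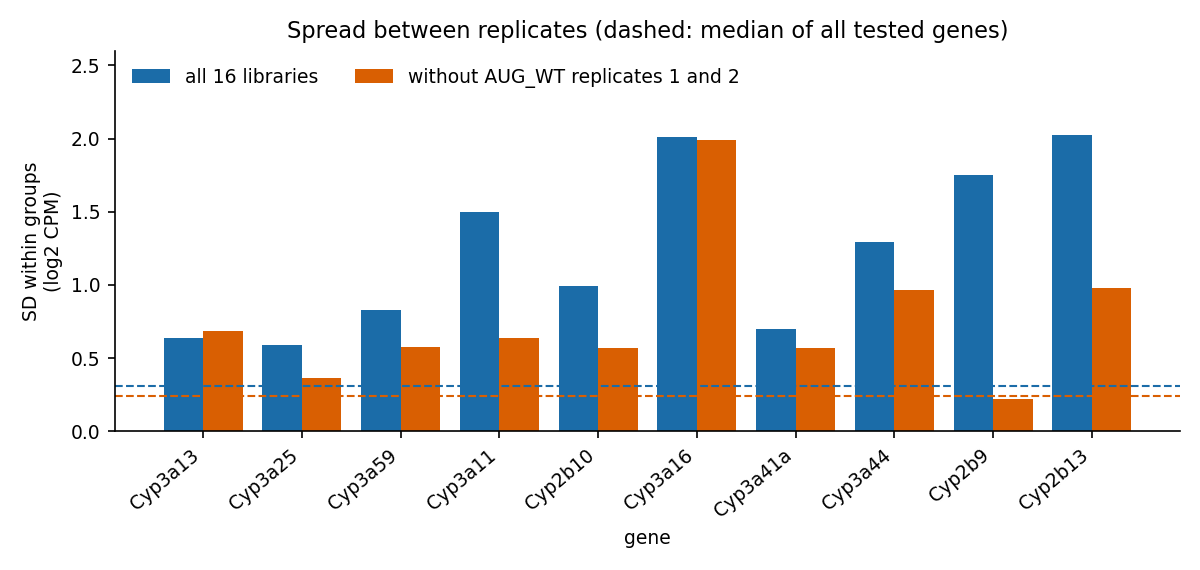
Standard deviation of log2 CPM within groups for each gene (vertical axis from 0), with all 16 libraries and without AUG_WT replicates 1 and 2; dashed lines give the median of all tested genes, 0.312 and 0.239. Cyp2b9 drops from 1.75 to 0.223, while Cyp3a16 stays at 1.99.

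Comparison of AUG with AUG_WT asked whether the CUG/AUG genotype went with another level of these genes. None of the 10 members passed an adjusted p of 0.05 (edgeR quasi-likelihood test, Benjamini-Hochberg over 14421 genes), in a comparison in which 4 genes, 0.0277% of those tested, did. None had an unadjusted p under 0.05 either, against 8.81% of tested genes, and none had groups that did not overlap, against 2.05%. Fitted log2 fold changes were above 0 for 6 members and below 0 for 4, with a median of 0.15 against -0.04 over all tested genes. Of the female growth-hormone-controlled genes, 3 were below 0 and 2 above. DESeq2 called no member either, with 9 genes in all.

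The furthest values in the AUG comparison were a log2 fold change of -1.70 (SE 1.10, adjusted p = 0.669, edgeR) for Cyp3a16, with means of 69.9 ± 56.6 CPM in AUG and 227 ± 201 in AUG_WT (SD, n = 4), and -1.07 (SE 0.76) for Cyp3a44. Without AUG_WT replicate 2 these were -0.94 and 0.036, and Cyp3a41a went from -0.59 to -0.18. Cyp2b13 was at 0.83 (SE 0.96), Cyp2b9 at 0.59 (SE 0.80) and Cyp3a11 at 0.54 (SE 0.74). With AUG_WT replicates 3 and 4 alone these 3 turned to -0.06, -0.29 and -0.17, and Cyp3a25 and Cyp2b10 turned to -0.24 and -0.39. Cyp3a59 stood at -0.35, Cyp3a25 at 0.19, Cyp2b10 at 0.17 and Cyp3a13 at 0.14. The 95% interval was narrowest for Cyp3a25, from -0.60 to 0.98, and widest for Cyp3a16, from -4.08 to 0.69.

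Comparison of del7 with del7_WT asked the same of the 7-nucleotide deletion, and it does not use the AUG_WT libraries except for the shared estimate of spread. Again 0 of 10 members passed the adjusted threshold, and so did 0 of all tested genes (0%), while 277 genes, 1.92%, had an unadjusted p under 0.05. DESeq2 called 1 gene in this comparison, which was none of the members. Cyp3a44 was the 1 member with an unadjusted p under 0.05. Its means were 156 ± 105 CPM in del7 and 497 ± 256 in del7_WT (SD, n = 4), and the fitted log2 fold change was -1.67 (SE 0.77, 95% interval -3.34 to -0.002, unadjusted p = 0.0453, adjusted p = 1, edgeR). It stayed between -2.12 and -1.34 when each library was left out in turn, and its lowest adjusted p over the 19 alternatives was 0.516. Within each of the 4 replicate numbers the del7 library was below the del7_WT library for Cyp3a44, Cyp3a41a and Cyp3a59. The numbers were not taken as pairs, for reasons given at the end, so this is a description only. Cyp3a44 and Cyp3a41a also share sequence and are not separate cases.

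Other female growth-hormone-controlled genes gave -1.26 (SE 1.08) for Cyp3a16, -0.83 (SE 0.43) for Cyp3a41a, -0.18 (SE 0.80) for Cyp2b9 and 0.26 (SE 0.95) for Cyp2b13, so 4 of the 5 were below 0 and none passed. Among all members 7 were below 0 and 3 above, with a median of -0.16 against 0.0001 over all tested genes. Cyp3a11 stood at 0.38 (SE 0.74), Cyp3a13 at 0.42, Cyp3a25 at -0.09, Cyp3a59 at -0.58 and Cyp2b10 at -0.14. No member had groups that did not overlap, against 4.01% of tested genes.

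Cyp3a63-ps, a pseudogene outside the 10 that shares 202 windows of 50 bases with Cyp3a44, did have groups that did not overlap, and is named after its values were seen. It was at 8.20, 12.4, 10.9 and 8.14 CPM in del7_WT and at 4.11, 7.75, 3.94 and 1.49 CPM in del7 (log2 fold change -1.18, SE 0.50, adjusted p = 1, edgeR).

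**Figure D5:**
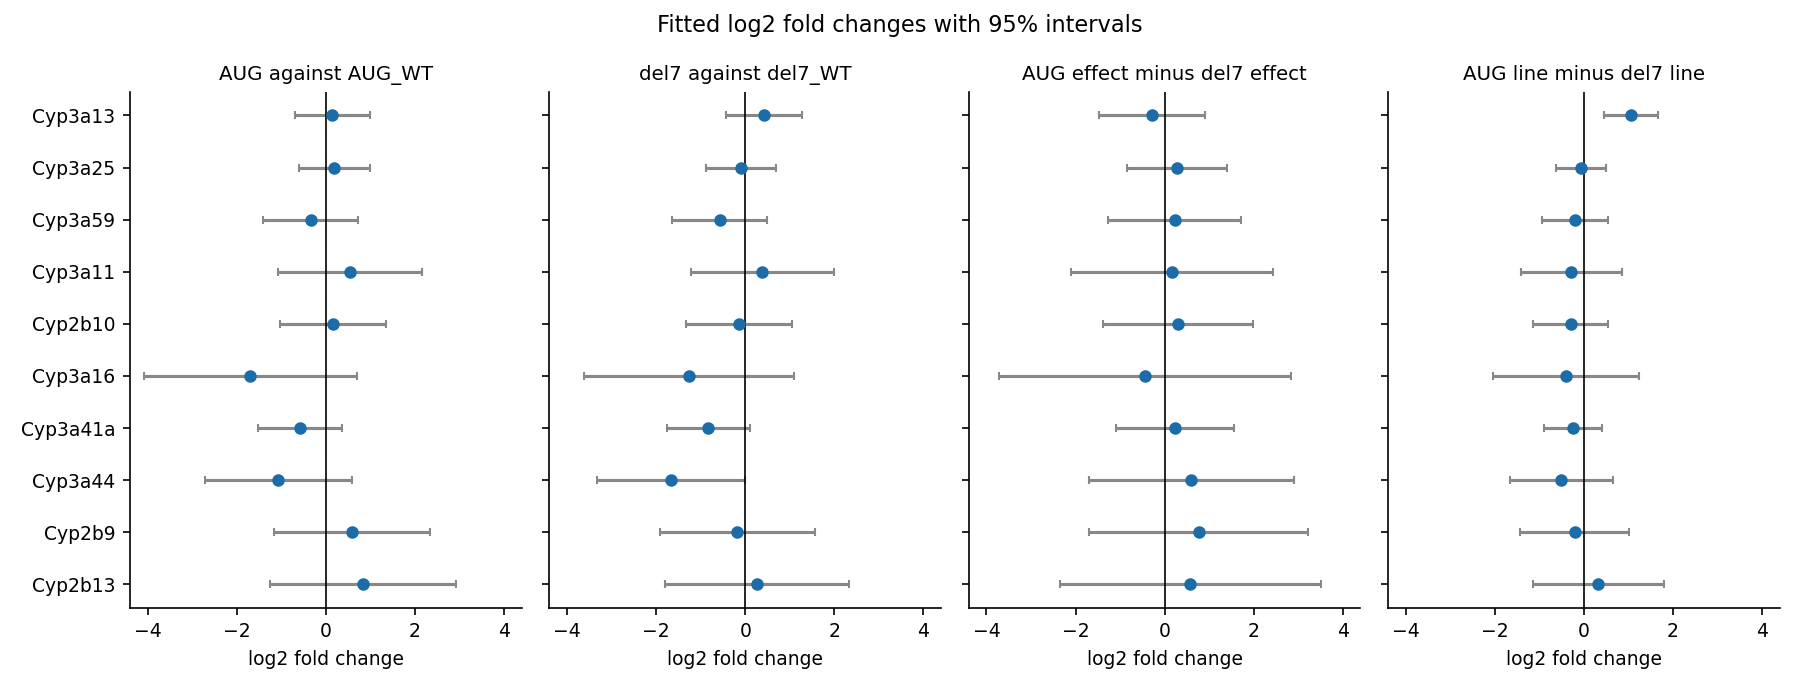
Fitted log2 fold change (horizontal axis) of each gene (rows) with its 95% interval in the 4 comparisons. Intervals of all 10 genes cover 0 in the AUG comparison and in the difference of the effects, and the interval of Cyp3a13 lies above 0, from 0.45 to 1.65, between the lines.

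The difference between the AUG and del7 effects, an interaction term, called 1 gene (0.00693% of those tested), and it was none of the members. None of the 10 had an unadjusted p under 0.05 there, against 5.21% of tested genes. The estimates ran from -0.44 (SE 1.51) for Cyp3a16 to 0.77 (SE 1.13) for Cyp2b9, and the smallest adjusted p was 0.935 (edgeR). The 2 mutants were therefore not shown to differ in these genes, and intervals as wide as -3.73 to 2.85 for Cyp3a16 do not show that they were alike.

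Between the lines, 51 genes were called (0.354% of those tested), and none was a member, nor were the groups of any member without overlap (0.173% of tested genes). Cyp3a13 came closest. It averaged 183 ± 29.2 CPM in the 8 libraries of the AUG line and 89.1 ± 43.2 in the 8 of the del7 line (SD), a log2 fold change of 1.05 (SE 0.28, unadjusted p = 0.00172, adjusted p = 0.179, edgeR), which is 2.07-fold. It was the 1 member of 10 with an unadjusted p under 0.05, a share near the 8.98% of all tested genes. DESeq2 gave an adjusted p of 0.0215 for it. Over its 24 alternatives the adjusted p lay between that value and 0.360 and the log2 fold change between 0.92 and 1.32. Of 5 genes listed as intestinal markers, Vil1 was at most 1.0 CPM in any library, and 2 passed the filter on low counts, Fabp2 at 0.26 (SE 0.27) and Apoa4 at 0.67 (SE 0.53) between the lines. The listed genes summed to 52.0 to 998 CPM while Vil1 stayed that low, so Fabp2 and Apoa4 are not read here as a measure of gut tissue.

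The other 9 members lay between -0.50 (Cyp3a44, SE 0.53) and 0.33 (Cyp2b13, SE 0.67) between the lines, 8 of the 10 below 0, against 56.5% of all tested genes above 0. The line comparison sets all libraries of 1 mutant and its wild type against those of the other, and anything else that differed between the lines cannot be told apart from them.

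Genes that work with the members were read from lists of textbook liver biology, and no gene of these lists passed the adjusted threshold in any of the 4 comparisons. For the 8 receptors and partners (Nr1i2, Nr1i3, Rxra, Hnf4a, Por, Alas1, Cyb5a, Cyb5r3) 5 were above 0 in the AUG comparison and 2 in the del7 comparison, with medians of 0.14 and -0.14. With AUG_WT replicates 3 and 4 alone 2 of the 8 were above 0 for AUG (median -0.25). Of 20 other CAR and PXR targets, 14 were above 0 for AUG (median 0.17) and 7 for del7 (median -0.12). With AUG_WT replicates 3 and 4 alone 2 of the 20 were above 0 for AUG (median -0.27, against 0.019 for all genes), so 12 turned below 0. AUG_WT replicate 1 was lowest of the 16 libraries for 10 of these 20 genes and for 6 of the 8 receptors and partners. The 2 with the smallest p for AUG were Akr1b7 (-1.38, SE 0.70, adjusted p = 0.594, edgeR), an aldo-keto reductase, and Gstm3 (-0.59, SE 0.34), a glutathione transferase. For del7 they were Ces2a, a carboxylesterase (-0.47, SE 0.41), and Slco1a4, an uptake transporter (-0.37, SE 0.36).

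Of 15 other female-biased growth hormone genes, 5 were above 0 and 10 below in the del7 comparison (median -0.45, against 0.0001 for all genes) and 8 above and 7 below in the AUG comparison (median 0.07), which became 2 above and 13 below (median -0.39) with AUG_WT replicates 3 and 4 alone. Sult3a1, a sulfotransferase, was at -0.87 (SE 0.53) in del7. Of 9 genes of the growth hormone receptor and STAT5 pathway, 2 were above 0 in del7 (median -0.41), with Cish, a feedback inhibitor, at -0.76 (SE 0.36) and Igf1, a growth factor, at -0.41 (SE 0.22), both with an adjusted p of 1 (edgeR). The 9 male-biased genes that were tested had 5 above 0 and a median of 0.53. Their lowest was Slco1a1, an uptake transporter, at -4.93 (SE 1.35), for which 1 library, del7_WT replicate 1 at 91.7 CPM, stood above 0.1 to 6.5 CPM in the other 7 libraries of that line. Between the lines Susd4 came closest in these lists, at -2.28 (SE 0.47, adjusted p = 0.0522, edgeR). Its levels were low, at 0.227 to 0.569 CPM in the AUG line. In the del7 line del7_WT replicate 1 stood at 7.495 CPM, above 0.373 to 2.73 CPM in the other 7 libraries.

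All 5 Kupffer cell markers were above 0 in the del7 comparison (median 0.88) and none passed the test. Their sum ranged from 150 to 236 CPM in del7_WT and from 240 to 393 CPM in del7, without overlap, while 4.01% of single tested genes had groups without overlap. In the AUG comparison all 6 B and plasma cell markers were below 0 (median -2.57), with a sum of 56.7 to 729 CPM in AUG_WT and 36.8 to 69.8 in AUG. With AUG_WT replicates 3 and 4 alone 4 of the 6 were above 0 (median 0.058). The part of these cell markers in the values of the Cyp3a and Cyp2b genes was not tested.

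The genes whose log2 CPM was most like that of a member over the 16 libraries were sought for 4 members among 14420 genes, as a measure of likeness only. For Cyp3a11 they were Ildr2 (Pearson r = 0.93, Spearman rho = 0.58), Cyp2c50 (r = 0.92) and Mug2 (r = 0.91). Without AUG_WT replicates 1 and 2, the libraries farthest from the median, r was 0.41, 0.44 and 0.31, so the likeness rested on those libraries. For Cyp2b9 they were Abcc3 (r = 0.96), Ildr2 (r = 0.94) and Raet1d (r = 0.93), and r was 0.29, 0.39 and -0.08 without the same libraries. Cyp2b10 was nearest to Cox5a, Gcsh and Dnaja3 (r = 0.93, 0.93 and 0.92), with r between 0.60 and 0.70 without AUG_WT replicate 1 and del7 replicate 4. Cyp3a41a was nearest to Htra4 (r = 0.89, rho = 0.92), Gm32063 and Trim14 (both r = 0.89), and here r was 0.92, 0.85 and 0.87 without del7 replicate 3 and AUG_WT replicate 1.

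Pairs of members were described in the same way over the same libraries, which share depth and the extremes named above. Cyp3a25 and its copy Cyp3a59 had r = 0.88, and r = 0.83 without AUG_WT replicates 1 and 2. Cyp3a41a and Cyp3a44 had r = 0.74 and 0.61. Across classes, the female Cyp3a16 and the constitutive Cyp3a59 had r = 0.66 and 0.72. Cyp2b9 and Cyp2b13 had r = 0.90 with all libraries and 0.26 without these. Cyp3a11 and Cyp3a44 went the other way, with r = -0.48 and -0.72.

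Of the other 8 genes and pseudogenes of the 2 families, Cyp3a41b held 4723 reads over the 16 libraries, Cyp3a63-ps 863, Cyp2b27-ps 97, Cyp3a57 91, Cyp2b26-ps 6 and Cyp2b23 2, and Cyp2b19 and Cyp3a61-ps1 held 0. Cyp3a41b was at 5.61, 100.2, 40.7 and 24.0 CPM in AUG_WT and at 13.4, 5.997, 8.09 and 23.9 CPM in AUG. Its log2 fold change for AUG was -1.72 (SE 0.72, adjusted p = 0.561, edgeR), with AUG_WT replicate 2 the highest of all 16 libraries, and -0.84 (SE 0.67) without that library.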

How the data were processed

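The submitters' processing notes name cutadapt 2.10, STAR 2.7.9a and GRCm39. No annotation release is named in the sources used here. Deposited values are unnormalized gene counts, and in all 16 libraries the authors' series table held the reverse-strand column of the sample tables. Unmapped, multimapping and unassigned reads were left out. GENCODE M21 (GRCm38) gave names, lengths and transcripts, naming 52081 of 55357 genes and 10 of 10 members, and RefSeq (GRCm38.p6) gave promoters.

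Tests used edgeR 4.0.16 (R 4.3.3), with filterByExpr at a minimum count of 10, TMM scaling and quasi-likelihood on the 4 group means (12 residual degrees of freedom). They were two-sided, with Benjamini-Hochberg adjustment over 14421 genes at 0.05. The 95% intervals come from the SE and those degrees of freedom, and log2 CPM has a prior count of 2. CPM per kilobase uses 1 transcript per gene. In simulated data, 37.3% of 2-fold and 87.9% of 4-fold changes were called for AUG, and 35.8% and 83.3% for del7. Those changes were placed in genes drawn from all that were tested, so the shares do not describe the members. The members had SEs of 0.363 to 1.10 for AUG and 0.363 to 1.08 for del7, against a median of 0.222 over all tested genes in both. Members and lists were chosen with earlier results of these data known. Genes named are all members, the 2 of smallest p in a list and the 3 most like each of 4 members, beside those said to be chosen after their values were seen. A gene that this rule also picks is not reported here.

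Alternatives were RLE factors, other filters, DESeq2 1.42.0, voom (limma 3.58.1), unstranded counts, a replicate block, the compared groups alone and leaving out each library. Those with AUG_WT replicates 3 and 4 alone, without AUG_WT replicate 1 or 2 for del7, and with the Cyp3a41 copies summed were added after seeing the data.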

Additional observations from a re-analysis of the deposited data

How the results depend on the processing

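None of the 40 member results was called in the tests as reported. Of their 844 alternatives, 794 kept direction and side of the threshold, 49 turned direction, and 1 passed the threshold, Cyp3a13 between the lines with DESeq2. All 80 alternatives of the group means moved by less than the SD. Counts of called genes moved to 9 (AUG), 1 (del7), 6 (difference) and 164 (lines) with DESeq2, to 3 (difference) and 118 (lines) with voom, and to 92 (lines) with AUG_WT replicates 3 and 4 alone. Leaving out each library gave 3 to 5 (AUG), 0 (del7), 1 to 2 (difference) and 26 to 112 (lines).

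With AUG_WT replicates 3 and 4 alone the AUG effect was -0.17 for Cyp3a11, -0.24 for Cyp3a25, -0.39 for Cyp2b10, -0.064 for Cyp2b13 and -0.29 for Cyp2b9. The difference of the effects was then -0.54 for Cyp3a11, -0.14 for Cyp3a25, -0.082 for Cyp3a59, -0.32 for Cyp2b13, -0.10 for Cyp2b9 and -0.24 for Cyp2b10, and the line difference 0.16 for Cyp3a25, 0.076 for Cyp3a11 and 0.24 for Cyp2b9. With voom the AUG effect was -0.043 for Cyp3a25 and -0.46 for Cyp2b10, the difference -0.20 for Cyp2b10, and the line difference 0.15 for Cyp3a16 and 0.053 for Cyp3a25. With Cyp3a41a and Cyp3a41b summed the difference for Cyp3a41a was -0.047.

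Leaving out 1 library at a time, the AUG effect ranged from -2.19 to -0.94 for Cyp3a16, -0.84 to -0.18 for Cyp3a41a, -1.42 to 0.036 for Cyp3a44, -0.092 to 0.59 for Cyp3a25, -0.80 to 0.036 for Cyp3a59 and -0.28 to 0.54 for Cyp2b10. The del7 effect ranged from -0.24 to 0.014 for Cyp3a25, -0.36 to 0.077 for Cyp2b10 and -0.082 to 0.62 for Cyp2b13. The difference ranged from -0.99 to 0.58 for Cyp3a16, -0.0046 to 0.65 for Cyp3a41a, -0.24 to 0.71 for Cyp3a11, -0.22 to 0.61 for Cyp3a59 and -0.13 to 0.68 for Cyp2b10. The line difference ranged from -0.79 to 0.11 for Cyp3a16, -0.26 to 0.083 for Cyp3a25 and -0.20 to 0.53 for Cyp2b13. The cause of these changes was not tested.

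The labels do not say what the replicate numbers stand for, and not every same-numbered pair correlated above 0.1 in its deviations from the group means, so the numbers were not taken as pairs. The correlations were -0.157 to 0.351 in the AUG line, with 1 of 4 above 0.1, and 0.0919 to 0.283 in the del7 line, with 3 of 4. In the del7 line 3 of 4 libraries of each group correlated best with their own number, all 8 pairs of 2 odd or 2 even numbers were above 0 and all 8 pairs of an odd with an even number were below 0. With the replicate block the del7 effect was -1.98 (SE 0.59, adjusted p = 1, edgeR) for Cyp3a44 and -0.93 (SE 0.36) for Cyp3a41a. With the replicate block the difference of the effects called 2 genes, and 2 member results turned, the del7 effect of Cyp2b13 to -0.024 and the difference for Cyp3a16 to 0.31. Depth limited most the lowest value, Cyp2b13 in AUG_WT replicate 2, which rests on 12 reads.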
